A study of Mus musculus with 9 samples.

Results

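Leng8, Coro6, Eml5 and Muc3a were 4 of the 54532 genes measured in the mouse hippocampus, and they were chosen by their measured levels, which were far higher in the 3 betaine libraries than in the other 6 with a low spread. These values, Bet+HMD against HMD and against Con, are therefore given below as a description with no test. The choice set no numeric limit on the size of the rise. Ranked by the smaller of both rises among 11835 protein-coding genes, Leng8 stood at position 3, Muc3a at 4, Coro6 at 5 and Eml5 at 38. Among all 13435 genes ranked, noncoding ones included, the positions were 17, 21, 27 and 226. The genes of the coding list ahead of Leng8 were mt-Atp8 and Snhg11, the latter a noncoding RNA gene that the files list as protein-coding, and the next after Coro6 was Pabpn1 with a log2 difference of 2.39.

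RNA was sequenced from the hippocampus of C57BL/6 mice labelled male and bought at 6 to 8 weeks of age, with 3 mice per group. The strain labels of Bet+HMD replicates 2 and 3 read C57BL/7 and C57BL/8, which were taken as slips for the strain named for the series. Con mice received standard chow, whereas the HMD group ate food rich in methionine over 8 weeks, which raises homocysteine. Bet+HMD mice were fed likewise for 8 weeks and then given 2.5% (w/v) betaine, a methyl donor in homocysteine removal, for 2 weeks. Whether the diet continued beside betaine is not clear from the sources, and no group received betaine on standard chow. The levels are FPKM, that is fragments scaled to gene length and to library size, so they can be compared between genes. A first table holds Con and HMD, and a later table holds the same 6 libraries again together with Bet+HMD. The later table had 16031464 to 18291952 reads on genes per library. At least 1 read fell on 25315 to 25663 genes in Bet+HMD, on 20960 to 22502 in HMD and on 20816 to 23272 in Con. Markers of hippocampal neurons were above 1 FPKM for 8 of 8 genes in every group. Their levels were not all alike. Spink8 was 5.81 to 7.99 FPKM in Bet+HMD, beside 15.2 to 21.2 in HMD and 18.8 to 24.9 in Con. Fibcd1 was 13.0 to 13.5 FPKM in Bet+HMD, beside 20.4 to 26.8 and 31.4 to 40.5. None of the other hippocampal markers lay outside the ranges of both groups. The summed level of 8 thalamus markers was 38.1 to 94.8 FPKM in HMD, beside 18.5 to 26.8 in Con and 26.3 to 27.7 in Bet+HMD, and that of 5 red blood cell markers was 149 to 233 FPKM in HMD, beside 99.8 to 148 and 72.2 to 122. The part of these marker differences in the results below was not tested. Nothing in the labels names a sequencing or extraction batch. As described, Bet+HMD mice had 2 more weeks on study than the others and may have been older at sampling. Betaine, this added time and any difference in the handling of the 3 Bet+HMD libraries cannot be told apart.

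The 4 genes belong to different families. Leng8 encodes a nuclear protein with a domain like that of the TREX-2 complex, which links transcription to export of mRNA from the nucleus. Coro6 encodes a coronin, a family of WD-repeat proteins that bind actin filaments and influence their turnover. Eml5 encodes a member of the EML family, WD-repeat proteins that associate with microtubules. Muc3a is named as a mucin of the membrane-bound type, glycoproteins best known from the surface of the gut epithelium. In the brain, actin filaments shape dendritic spines and microtubules carry transport along axons and dendrites.

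On GRCm38, Leng8 (ENSMUSG00000035545) lies on chromosome 7, plus strand, from 4137039 to 4148177, with an exonic length of 6395 bases. Coro6 (ENSMUSG00000020836) lies on chromosome 11, plus strand, from 77462411 to 77470484, with 3011 exonic bases. Eml5 (ENSMUSG00000051166) is a long gene on chromosome 12, minus strand, from 98786805 to 98901484, with 12031 exonic bases. Muc3a (ENSMUSG00000094840) lies on chromosome 5, minus strand, from 137208813 to 137212389, with 1887 exonic bases, and GENCODE tags its model as affected by an error of the reference genome. All 4 are annotated as protein-coding.

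The sequences before the start sites of these genes are shown as a description. RefSeq windows on GRCm38.p6, from 250 bases before to 50 after a start site, were matched for 3 of the 4 genes, namely Leng8, Coro6 and Eml5. The first window of each is printed 5′ to 3′ on the gene's strand. Capitals mark matches on either strand to the motifs searched. These were the TATA box, spelled TATAAA, and the CCAAT box, spelled by its name. The GC box, which Sp1-type factors bind, was searched as GGGCGG. The half-site of the cAMP response element (CRE) was searched as TGACG and the E-box of helix-loop-helix factors as CACGTG. The core of the site of NRF1, a regulator of mitochondrial genes, was searched as GCATGCGC.
Leng8, chr7:4136806-4137105, plus strand: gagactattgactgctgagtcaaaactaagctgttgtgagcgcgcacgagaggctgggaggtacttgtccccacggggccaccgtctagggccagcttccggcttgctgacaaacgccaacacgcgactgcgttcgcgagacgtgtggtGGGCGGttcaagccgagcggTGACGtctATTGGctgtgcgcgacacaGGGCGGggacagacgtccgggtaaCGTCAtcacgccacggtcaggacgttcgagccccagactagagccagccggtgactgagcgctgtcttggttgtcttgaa
Coro6, chr11:77462330-77462629, plus strand: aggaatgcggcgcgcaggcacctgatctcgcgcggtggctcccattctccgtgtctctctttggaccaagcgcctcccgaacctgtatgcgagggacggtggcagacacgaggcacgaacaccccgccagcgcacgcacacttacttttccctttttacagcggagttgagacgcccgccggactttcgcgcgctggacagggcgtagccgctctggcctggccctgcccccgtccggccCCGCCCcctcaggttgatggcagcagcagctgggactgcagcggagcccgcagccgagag
Eml5, chr12:98901435-98901734, minus strand: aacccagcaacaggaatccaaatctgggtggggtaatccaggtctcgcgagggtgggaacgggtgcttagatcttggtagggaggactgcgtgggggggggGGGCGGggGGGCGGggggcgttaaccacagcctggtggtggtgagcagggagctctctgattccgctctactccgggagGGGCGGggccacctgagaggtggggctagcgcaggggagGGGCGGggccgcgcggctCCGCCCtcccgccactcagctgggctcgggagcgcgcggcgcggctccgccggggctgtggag

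The printed windows had a G+C content of 61.3% for Leng8, 67.3% for Coro6 and 71.7% for Eml5, beside a median of 52.7% over 32851 windows. The GC box was found in each printed window, with 2 matches for Leng8, 1 for Coro6 and 5 for Eml5. It was present in 35.7% of all windows, a share that is not matched for G+C content. The Leng8 window alone of these had a CCAAT box, at -73 with the start site counted as 0, and CRE half-sites at -81 and -30. These motifs occurred in 37.4% and 20.8% of all windows. A second Leng8 window (chr7:4137230-4137529, G+C 71.7%) held 1 GC box and 2 overlapping NRF1 cores, found in 2.71% of all windows. A second Coro6 window (chr11:77463661-77463960, G+C 52.0%) held 1 E-box, found in 7.15%, and no GC box. None of the 5 windows held the letters of the TATA box, which 13.6% of all windows did. A match of letters is a description of the window and not a binding site.

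Leng8 was the most abundant of the 4 genes in every group. Its level was 8.04, 4.77 and 9.25 FPKM in Con replicates 1 to 3 and 6.62, 6.64 and 6.85 FPKM in HMD. In Bet+HMD it was 60.5, 65.4 and 61.6 FPKM. The Con and HMD libraries overlapped, and the 3 Bet+HMD libraries lay far above both. The means were 7.35 ± 2.32, 6.71 ± 0.126 and 62.5 ± 2.57 FPKM (SD, n = 3 each). Bet+HMD was 9.32-fold HMD and 8.50-fold Con. Even the Bet+HMD library nearest to HMD was 8.83-fold the highest HMD library. These levels came from 6720 to 7397 reads per library in Bet+HMD, and from 494 to 1012 in the other groups.

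Coro6 was a gene of low level outside the betaine group. It measured 2.07, 1.23 and 2.10 FPKM in Con and 2.79, 2.51 and 2.97 FPKM in HMD. In Bet+HMD it measured 22.8, 25.0 and 21.5 FPKM. The 3 groups did not overlap, and their order was Con, HMD, Bet+HMD. The means were 1.80 ± 0.495, 2.76 ± 0.229 and 23.1 ± 1.76 FPKM (SD, n = 3 each), which made Bet+HMD 8.36-fold HMD and 12.8-fold Con. The reads behind a library were 60 to 151 in Con and HMD and 1126 to 1329 in Bet+HMD.

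Eml5 showed the smallest rise of the 4. Its level was 4.32, 4.23 and 4.23 FPKM in Con and 3.55, 5.13 and 3.72 FPKM in HMD. It was 14.7, 15.3 and 15.8 FPKM in Bet+HMD. HMD replicate 2 was above all Con libraries and the other 2 HMD libraries were below them, so these groups overlapped, and Bet+HMD was apart from both. The means were 4.26 ± 0.0512, 4.13 ± 0.863 and 15.3 ± 0.546 FPKM (SD, n = 3 each). Bet+HMD was 3.70-fold HMD and 3.60-fold Con. As the longest of the 4 genes it rested on 743 to 945 reads per library in Con and HMD and on 3081 to 3316 in Bet+HMD.

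Muc3a was close to the limit of detection in Con and HMD. It measured 0.527, 0.229 and 0.527 FPKM in Con, from 7 to 18 reads, and 0.854, 0.692 and 0.784 FPKM in HMD, from 20 to 28 reads. In Bet+HMD it measured 11.6, 12.7 and 10.3 FPKM, from 337 to 425 reads. As with Coro6, the groups did not overlap and stood in the order Con, HMD, Bet+HMD. The means were 0.428 ± 0.172, 0.777 ± 0.0815 and 11.5 ± 1.24 FPKM (SD, n = 3 each), or 14.9-fold HMD and 27.0-fold Con. With so few reads in the lower groups the folds are loose, since the fold between single Bet+HMD and Con libraries ran from 19.5 to 55.6.

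**Figure D1:**
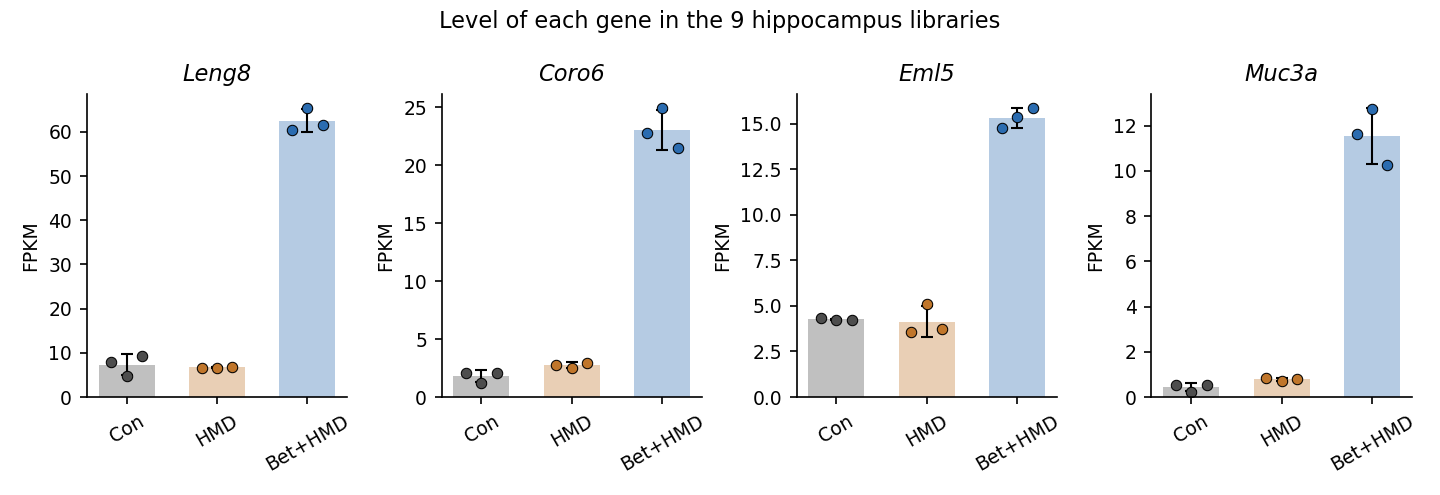
Level in FPKM (vertical axis, from 0) of Leng8, Coro6, Eml5 and Muc3a in the Con, HMD and Bet+HMD groups. Points are single libraries, bars the mean and error bars the SD of 3, and the Bet+HMD bars stand at 62.5, 23.1, 15.3 and 11.5 FPKM, above every Con and HMD library.

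The order of the genes by level changed between groups. In HMD it was Leng8, Eml5, Coro6 and Muc3a, and in Bet+HMD Coro6 stood above Eml5. In Bet+HMD the ranges of the 4 genes did not overlap. Among the Con libraries of the later table, replicate 2 had the lowest value for 4 of 4 genes, although for Eml5 the gap to replicate 3 was within rounding. In the first table Con replicate 2 was the highest for Eml5, at 4.222 FPKM beside 4.218 and 4.120. Of the 9 nuclear noncoding RNAs examined below, 6 were also lowest in Con replicate 2, and of the 18 intron-retaining genes 7 were, as many as in replicate 3. Over all genes the Bet+HMD libraries differed less from each other than those of the other groups did. The chi-square of reads per degree of freedom between replicates was 3.10 to 4.47 in Bet+HMD and 12.8 to 46.4 in Con and HMD. Within Bet+HMD the SD of log2(FPKM + 1) was 0.0578 for Leng8 and 0.0484 for Eml5, under the median of 0.0807 over all genes, but 0.105 for Coro6 and 0.144 for Muc3a, above that median.

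On the scale used for all genes, log2(FPKM + 1), the difference between Bet+HMD and HMD was 3.04 for Leng8 (SE 0.0655), 2.68 for Coro6 (SE 0.0863), 1.68 for Eml5 (SE 0.120) and 2.82 for Muc3a (SE 0.0989). This scale understates the change of low genes, most of all for Muc3a. Against Con the differences were 2.97 (SE 0.206), 3.12 (SE 0.145), 1.63 (SE 0.0723) and 3.14 (SE 0.127) in the same order. Both comparisons use the same Bet+HMD libraries and are not independent. All 4 genes lay without overlap above HMD and above Con, which the choice of genes fixed. The share of all genes tested that did so was 28.3% against HMD and 26.1% against Con. Muc3a passed the minimum mean of 1 FPKM through the Bet+HMD libraries alone.

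These 4 genes were the high end of a transcriptome in which a large part of all genes differed. By limma with Benjamini-Hochberg adjusted p under 0.05, 22.8% of 13672 genes were higher and 25.5% were lower in Bet+HMD than in HMD, and 19.4% of 13643 were higher and 20.4% lower than in Con. The summed FPKM of a library was 249135 to 258514 in the betaine group, beside 289606 to 292361 in HMD and 288439 to 307899 in Con. Rescaling every library to 1 total (TPM) moved the share of higher genes among those called from 47.2% to 69.5% against HMD and from 48.8% to 73.5% against Con, as the median gene moved from -0.03 to 0.16 and from -0.04 to 0.17. The 4 genes, chosen for their high Bet+HMD values, stayed above this shift, which is a description and no independent support. Relative to the median of all genes, the smallest difference of any of them under any setting tried was 1.6, that of Eml5 against Con.

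**Figure D2:**
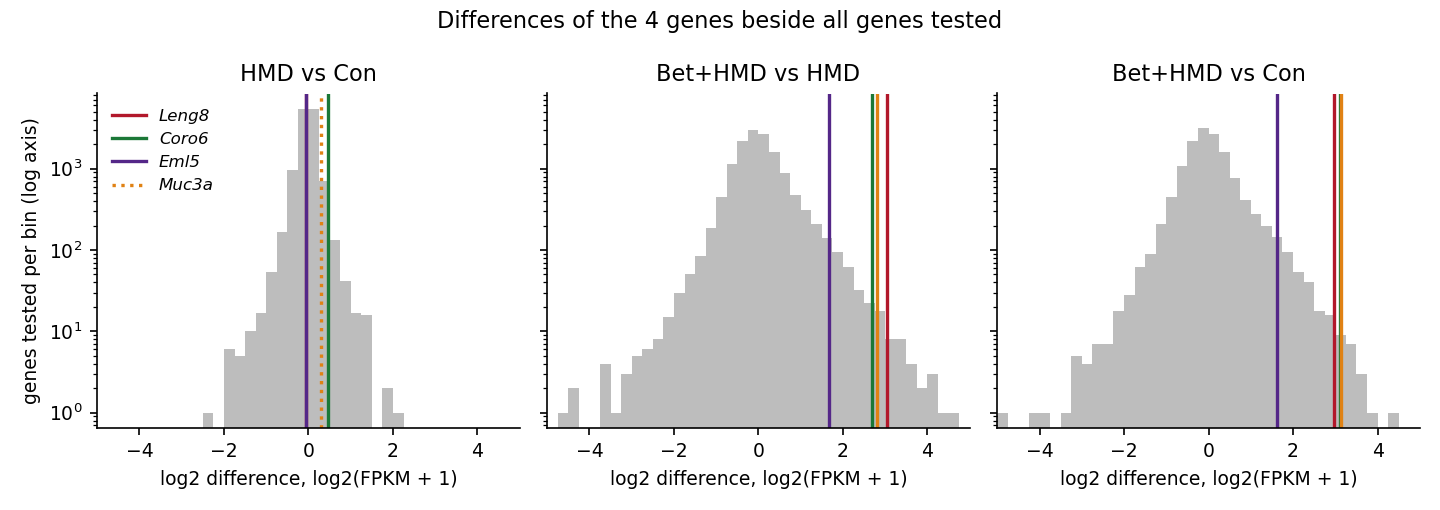
Distribution of the log2 difference over all genes tested (grey, number of genes per bin on a log axis) in the 3 comparisons, with vertical lines for the 4 genes. In HMD vs Con the lines lie between -0.06 and 0.46, with Muc3a dotted because it was under the filter there, and in both Bet+HMD comparisons they lie between 1.63 and 3.14.

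The difference between HMD and Con was not used to choose the genes, but the levels of both groups were. This comparison asks whether the diet alone moved the genes, and its tests are not independent of that choice. None of the 3 genes that could be tested passed. In the first table the log2 difference was -0.05 for Leng8 (SE 0.203, adjusted p = 0.987), 0.46 for Coro6 (SE 0.161, adjusted p = 0.980) and -0.06 for Eml5 (SE 0.134, adjusted p = 0.980). limma called 0 of 12989 genes here (0%), with 592 at an unadjusted p under 0.05, and voom on recovered reads also called 0. The signs for Leng8 and Eml5 turned when single libraries were left out. Leng8 ranged from -0.30 without Con replicate 2 to 0.11 without Con replicate 3, and Eml5 from -0.19 without HMD replicate 2 to 0.01 without HMD replicate 1.

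The libraries of HMD and Con did not overlap for Coro6 and Muc3a. In the first table Coro6 was 2.01, 1.19 and 2.04 FPKM in Con and 2.77, 2.45 and 2.97 FPKM in HMD, so that every HMD library exceeded every Con library. Its unadjusted p was 0.0232, and the exact two-sided permutation test of 3 against 3 gave 0.1, the smallest p this design allows. Without Con replicate 2, the lowest, the difference was 0.30. Muc3a, with a mean under 1 FPKM, was not tested with the other genes. Its libraries did not overlap either, at 0.511, 0.222 and 0.512 FPKM in Con and 0.827, 0.657 and 0.745 FPKM in HMD (1.79-fold, beside 1.56-fold for Coro6, exact permutation p = 0.1). When genes under 1 FPKM were kept in the fit, its adjusted p was 0.899. Of all genes tested, 4.71% were higher in HMD without overlap.

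Relatives of the 4 genes were examined next. Over all genes, 22.8% were called higher and 25.5% lower against HMD, and 19.4% and 20.4% against Con. Of 6 other coronins, all of which passed the filter, 0 were higher and 1 was lower in Bet+HMD than in HMD, with a median log2 difference of 0.0018, beside -0.03 over all genes. The gene that fell was Coro1a, the coronin of leukocytes and microglia, from 23.2 ± 1.87 to 13.3 ± 0.918 FPKM (log2 difference -0.76, adjusted p = 0.00056). Coro7, a coronin of the Golgi, had a level of 7.53 ± 0.492 FPKM under HMD and of 8.89 ± 0.604 FPKM after betaine. Its difference missed the threshold against HMD and passed it against Con (0.48, adjusted p = 0.00605). In each of the 3 other scalings it passed against HMD too (0.43 and adjusted p = 0.00600 with TPM), which made 1 coronin higher and 1 lower.

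Of 17 genes of actin assembly and turnover, 0 rose and 9 fell against HMD, with a median of -0.30. The largest falls were those of Arpc1a, a subunit of the Arp2/3 complex that nucleates branched actin, from 78.6 ± 5.85 to 35.8 ± 2.05 FPKM (-1.11, adjusted p = 0.000108), and of Cfl2, an actin-severing cofilin, from 29.8 ± 1.89 to 18.1 ± 1.10 FPKM (-0.69, adjusted p = 0.000569). After TPM scaling 6 of the 17 were called lower and 0 higher, and after quantile normalization 6 lower and 1 higher. Against Con 10 fell and 0 rose, but 6 fell after TPM scaling and 4 after quantile normalization.

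Of 5 other EML genes, 2 rose and 1 fell against HMD, with a median of 0.13. With TPM 3 were higher and 0 lower, with a median of 0.35 beside 0.16 over all genes. Eml6, which like Eml5 encodes an extended array of WD repeats, rose from 1.83 ± 0.255 to 5.28 ± 0.126 FPKM (1.15, adjusted p = 0.00016), and it was higher than Con as well (0.84, adjusted p = 0.00218). Eml1, which acts in dividing neural progenitors, rose from 4.09 ± 0.711 to 5.59 ± 0.156 FPKM (0.38, adjusted p = 0.0270) but did not pass against Con. Eml2 fell from 38.6 ± 1.01 to 30.1 ± 1.70 FPKM (-0.35, adjusted p = 0.00547), a call that was lost after TPM scaling (adjusted p = 0.110).

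Among 18 genes of microtubules and their partners, 4 rose and 7 fell. This balance turned with the scaling, to 6 higher and 5 lower with TPM and to 8 higher and 5 lower after quantile normalization. The largest rises were those of Map1a, a microtubule-associated protein of mature neurons, from 88.0 ± 4.96 to 137 ± 2.69 FPKM (0.64), and of Map6, a stabilizer of cold-resistant microtubules, from 7.90 ± 1.11 to 11.2 ± 0.291 FPKM (0.47). The largest falls were those of the tubulins Tubb2a, from 216 ± 7.09 to 119 ± 4.78 FPKM (-0.86), and Tuba1a, from 309 ± 11.1 to 187 ± 13.9 FPKM (-0.72). The median of this list was -0.12 and turned to 0.08 after TPM scaling and to 0.14 after quantile normalization. The 4 named genes kept their direction in each scaling.

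The other mucins were too low for a test with 1 exception. Of 13 examined, the endothelial Emcn was the 1 gene that reached 1 FPKM on average, with means of 1.18 ± 0.232 FPKM (HMD) and 1.23 ± 0.137 FPKM (Bet+HMD), and it did not pass (adjusted p = 0.848). Each of the other 12 was at most 0.564 FPKM in every library. Among these, Muc1 had means of 0.185, 0.291 and 0.520 FPKM in Con, HMD and Bet+HMD, and Muc15 had means of 0.0941, 0.135 and 0.341 FPKM. Muc3, a separate gene entry from Muc3a, was listed at 0 in all HMD and Bet+HMD libraries. Markers of intestinal epithelium were low throughout, with a summed level of 1.07 to 1.46 FPKM in Con, 1.27 to 1.31 in HMD and 3.55 to 4.55 in Bet+HMD. The 2 of 8 above 1 FPKM in Bet+HMD were Lgals4 (1.44 to 2.24) and Krt20 (1.70 to 2.26), while Cdx1 and Cdx2, which define gut epithelium, were at 0 in all libraries. The part of these 2 markers in the Muc3a result was not tested. Markers of skeletal muscle, where Coro6 is also known, had a summed level of 3.17 to 3.92 FPKM in the betaine libraries, beside 3.02 to 5.92 in HMD and 3.80 to 5.82 in Con. In bulk tissue, more cells of a type and more RNA per cell cannot be told apart.

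For Leng8, 21 genes of nuclear mRNA export were examined, of which 6 rose and 7 fell, with a median of 0.0011. The largest rises were those of Zc3h11a, a zinc-finger protein of the export machinery, from 1.53 ± 0.430 to 3.66 ± 0.297 FPKM (0.89, adjusted p = 0.00212), and of Ddx39b, the helicase of the TREX complex, from 23.6 ± 3.75 to 33.8 ± 1.26 FPKM (0.51, adjusted p = 0.00868). Sac3d1, which carries a SAC3-type domain like that of Leng8, fell from 10.7 ± 1.01 to 2.63 ± 0.107 FPKM (-1.68, adjusted p = 3.64e-05). Its Con level lay between, at 6.55 ± 0.567 FPKM, and the difference against Con was smaller (-1.05, adjusted p = 0.000408). Sem1, a small subunit shared by TREX-2 and the proteasome, fell from 4.95 ± 0.658 to 2.54 ± 0.709 FPKM (-0.76, adjusted p = 0.00731). Leng8 and Sac3d1, whose domains are related, thus differed from HMD in opposite directions.

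Noncoding RNAs known from the nucleus and genes known to retain introns formed 2 further lists. Both were chosen with earlier results of these data known, and the place of RNA in the cell was not measured. Of 8 nuclear noncoding RNAs tested, 7 were higher in Bet+HMD than in HMD and 0 lower, with a median log2 difference of 2.09. Over all genes tested 22.8% were higher and 25.5% lower. Mirg averaged 0.455 FPKM in HMD and 3.48 in Bet+HMD, and Neat1 averaged 0.877 and 6.09. Both passed the filter of this comparison through the Bet+HMD libraries alone. Meg3, a long noncoding RNA of the imprinted Dlk1-Dio3 region, was 20.6 ± 3.57 FPKM in HMD and 331 ± 8.56 in Bet+HMD (3.96, adjusted p = 1.04e-05). Miat, a noncoding RNA of neuronal nuclei, was 5.28 ± 1.39 and 54.3 ± 1.54 FPKM (3.16, adjusted p = 2.76e-05). Peg13 alone of the 8 did not pass. Of 18 genes, some of whose transcripts are known to retain introns and to stay in the nucleus, 14 rose and 0 fell, with a median of 1.05. Snrnp70, a protein of the U1 snRNP, rose from 8.64 ± 1.17 to 51.4 ± 0.967 FPKM (2.45, adjusted p = 1.57e-05), and the splicing factor Srsf5 from 32.2 ± 3.26 to 85.4 ± 2.06 FPKM (1.39, adjusted p = 6.19e-05). Against Con, 7 of the 8 RNAs and 16 of the 18 genes were higher and 0 lower, beside 19.4% and 20.4% of all genes. The part of nuclear RNA in the level of Leng8, Coro6, Eml5 and Muc3a was not tested.

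**Figure D3:**
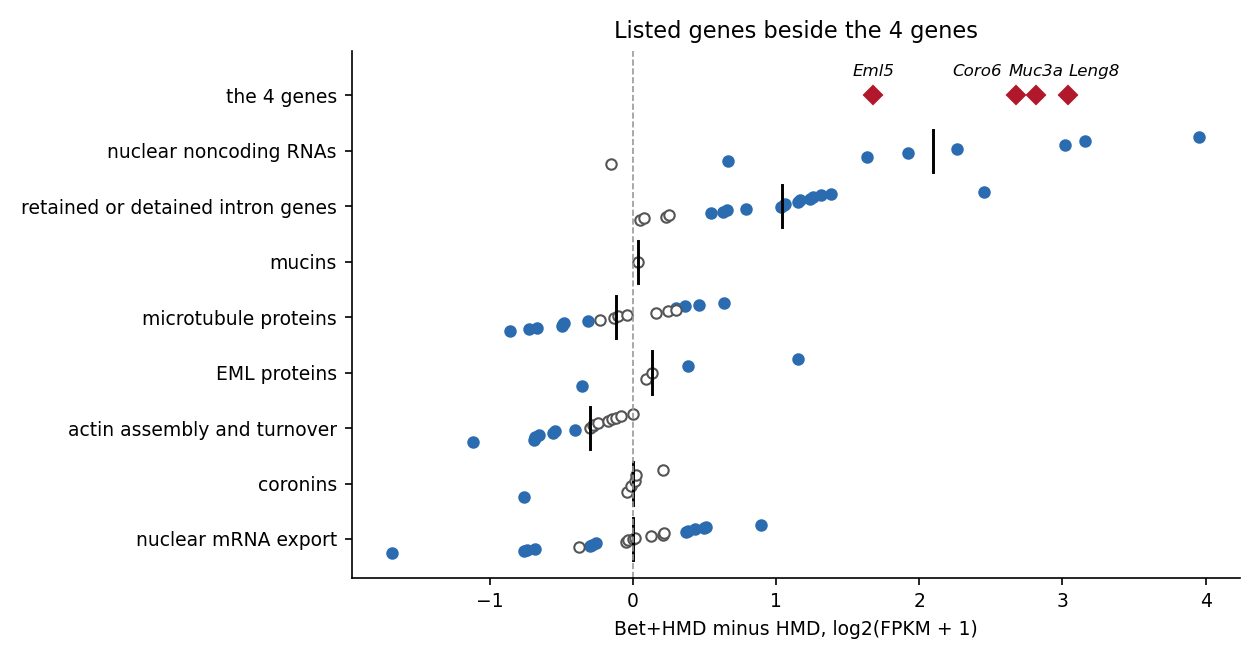
Difference of Bet+HMD minus HMD in log2(FPKM + 1) for each tested gene of the 8 lists and for the 4 genes (red diamonds). Filled points passed an adjusted p under 0.05, open points did not, and black bars are list medians, which run from -0.30 for actin assembly and turnover to 2.09 for nuclear noncoding RNAs.

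The gene models differed among the 4. Leng8 has 3 transcripts annotated as retaining an intron among 10, and Eml5 has 5 among 10. The bases found only in such transcripts made up 12.7% of the exonic length of Leng8 and 13.6% of that of Eml5. Coro6, with 6 transcripts, and Muc3a, with 2, have none. Among protein-coding genes tested, 57.9% have at least 1 such transcript, and 24.2% of these were called higher in Bet+HMD than in HMD, beside 13.8% of the genes without one. In length the 4 genes span the range of coding genes. Their genomic spans are 3577 bases for Muc3a, 8074 for Coro6, 11139 for Leng8 and 114680 for Eml5, beside a median of 25913.5.

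The surroundings of the 4 genes held genes that rose and genes that did not pass the test. On each side the nearest gene with a mean of at least 1 FPKM over all 9 libraries, betaine included, was taken. Without the Bet+HMD libraries D030047H15Rik and Gm42456 had a mean under 1 FPKM, so their rise is no independent support. Of 13 genes overlapping the 4 genes or next to them, 11 passed the filter, 5 rose against HMD and 0 fell. Over all genes 22.8% were called higher and 25.5% lower. With TPM 7 rose and 0 fell, while the genes called higher over all genes went from 3118 to 4496. For Leng8, the antisense transcript D030047H15Rik, which starts 113 bases upstream on the other strand, rose from 0.410 ± 0.141 to 3.86 ± 0.650 FPKM (1.78, adjusted p = 0.000152). Leng9 overlaps 263 exonic bases of Leng8 on the other strand and did not pass, at 1.49 ± 0.568 and 1.76 ± 0.0669 FPKM (adjusted p = 0.439). The reads of the shared bases may be split between Leng8 and Leng9, whose levels are uncertain to that extent, and 3.16% of the 50-base words of Leng8 transcripts occur also in Leng9.

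Next to Coro6, the gene Ankrd13b, whose 3′ end lies 1 base beyond that of Coro6 on the other strand, rose from 14.1 ± 2.48 to 19.6 ± 0.379 FPKM (0.46, adjusted p = 0.0150), but not past the threshold against Con (adjusted p = 0.0540). In each of the 3 other scalings it passed against Con (0.55 and adjusted p = 0.0156 with TPM). Ssh2, a phosphatase of cofilin on the other side of Coro6, did not pass, at 3.28 ± 0.351 and 3.19 ± 0.193 FPKM. For Muc3a, the lincRNA Gm42456 at a distance of 61704 bases rose from 1.30 ± 0.166 to 5.72 ± 1.09 FPKM (1.54, adjusted p = 0.000217). Trim56, on its other side, missed the threshold (0.29, adjusted p = 0.0547) and passed it in 2 of the 3 other scalings (0.57 and adjusted p = 0.0157 with TPM).

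Eml5 had the most overlapping entries. Zc3h14, a poly(A)-binding protein gene that shares 949 exonic bases with it on the other strand, did not pass, at 11.3 ± 0.393 and 10.8 ± 0.458 FPKM (adjusted p = 0.444). Gm48062, an unverified transcript inside Eml5 on the other strand, rose from 1.79 ± 0.581 to 11.2 ± 0.673 FPKM (2.14, adjusted p = 8.12e-05). It shares 301 exonic bases with Eml5, 11.5% of its own and 2.50% of those of Eml5. Use of the strand in counting is not given in the sources used here, so reads on the shared bases cannot be told apart. Whether reads on the rest of Gm48062 came from its own strand or from Eml5 introns is likewise unknown. The entries A930040O22Rik and Gm48063, which lie within introns of Eml5, were below the filter, with means of 0.0806 and 0.107 FPKM in HMD and 0.780 and 0.643 in Bet+HMD. Beyond the start of Eml5, at a distance of 19090 bases, Ttc8, a gene of the primary cilium, rose from 4.67 ± 0.405 to 7.80 ± 0.499 FPKM (0.64, adjusted p = 0.00110). In HMD vs Con, 9 of the 13 genes were tested and limma called 0.

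**Figure D4:**
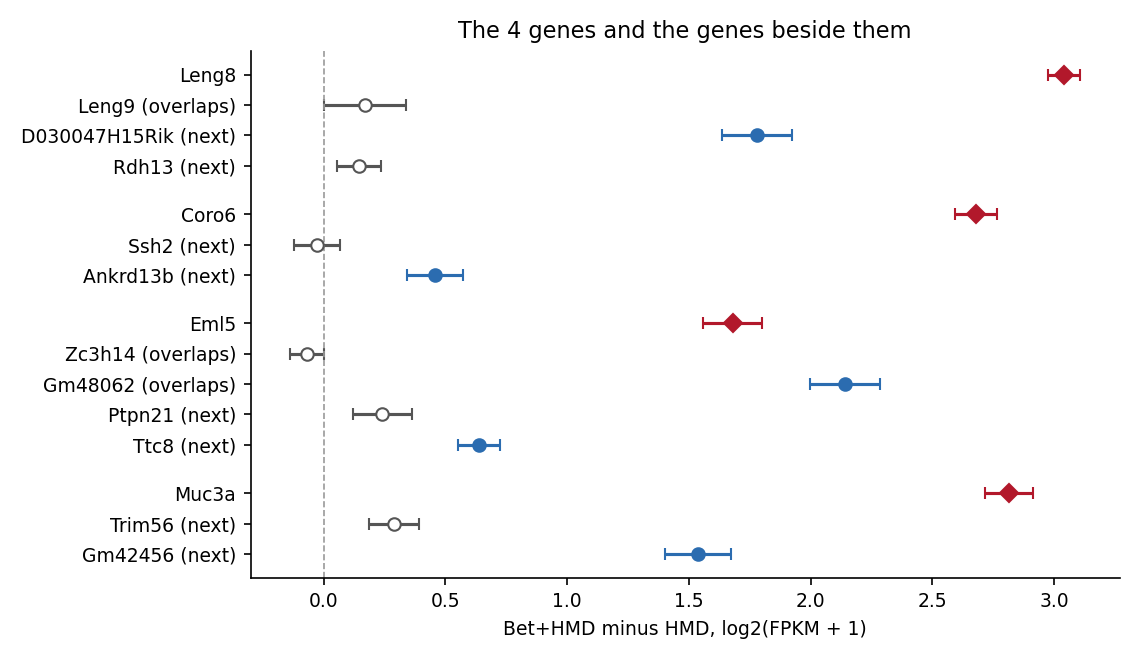
Difference of Bet+HMD minus HMD in log2(FPKM + 1), with its SE, for the 4 genes (red diamonds) and for the overlapping or next genes that passed the filter (circles, filled where the adjusted p was under 0.05). The 5 filled circles run from 0.46 for Ankrd13b to 2.14 for Gm48062, and each lies right of 0.

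Over the 9 libraries of the later table, the 4 genes correlated with each other at r = 0.969 to 0.998 in log2(FPKM + 1). This is a description, since the choice of genes and the separation of 3 libraries from 6 produce it. Coro6 and Muc3a were the closest pair. Among the genes most like Leng8, of 13464 compared, were Ccdc84 (r = 0.998) and Aifm3 (r = 0.997). Ccdc84 averaged 0.890, 0.894 and 3.5 FPKM in Con, HMD and Bet+HMD, and Aifm3 averaged 8.04, 7.76 and 26.0 FPKM.

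The genes most like Coro6 and Muc3a were largely shared, with Stx3, a syntaxin of membrane fusion, first for both at r = 0.999. Stx3 averaged 4.10, 4.65 and 10.5 FPKM in Con, HMD and Bet+HMD. Smpd4, a neutral sphingomyelinase, came next after them for both, at 2.47, 2.74 and 7.59 FPKM. For Eml5 they were Srek1, a regulator of splicing (5.31, 5.13 and 15.0 FPKM), Ubp1, a transcription factor (11.1, 10.9 and 28.8 FPKM), and the unverified transcript A930004J17Rik (0.662, 0.729 and 3.03 FPKM), at r = 0.997, 0.996 and 0.996. Such likeness was common. Between 582 and 728 genes, 4.32% to 5.41% of those compared, had r above 0.95 with any one of the 4.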

How the data were processed

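The authors describe ribosomal RNA depletion and then a stranded mRNA kit with paired-end reads for Con and HMD. Whether poly(A) RNA was also selected is not clear from this. The preparation of the 3 betaine libraries is not given in the sources used here. The authors, per the labels, aligned reads with HISAT2 2.1.0 to mm10 and counted them with featureCounts 1.5.0-p3. The study's methods name later versions of both tools. The authors deposited FPKM per gene in 2 tables, with gene length in bases (another unit, used unchanged). Every FPKM value came back to a whole number of reads (100%, tolerance 0.01). The 6 shared libraries had 0.312% to 5.49% fewer reads in the later table, so tests stayed within a table. Columns headed COL were taken as Con by elimination, since the remaining prefixes named HMD and betaine. limma 3.58.1 (R 4.3.3) with intensity trend was fitted to log2(FPKM + 1) of 2 groups, for genes of mean FPKM at least 1, with two-sided p adjusted by Benjamini-Hochberg over all genes tested and a threshold of 0.05. P-values weigh a difference between groups against the spread between libraries within them, and do not cover any difference in handling between groups. Gene models came from GENCODE M21, where 54409 of 54532 identifiers matched. The scripts were tested on simulated data.

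The 4 genes and the gene lists were chosen with earlier results of these data known, and no list count is independent support. Named were the 4 genes, the 3 genes most correlated with each, their neighbours, and of each list the 2 largest rises and 2 largest falls past the threshold against HMD. A gene under this rule is not reported here. Beside this rule, Coro7, Peg13, Mirg, Neat1, Emcn, Muc3, Pabpn1, mt-Atp8, Snhg11 and marker genes are named after their values were seen. Alternatives were a pseudocount of 0.1, other filters and scalings, voom, 1 fit of all groups, the replicate number as block, the later table for HMD vs Con, and each library left out. In every library Xist was at most 0.0449 FPKM and the Y-linked Ddx3y at least 12.7, as for males. The study's methods name female mice.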

Additional observations from a re-analysis of the deposited data

How the results depend on the processing

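Over all settings tried, each of the 4 genes stayed higher in Bet+HMD than in HMD and in Con. The choice of genes by these values favoured that outcome, so it is a description and no support. The log2 differences against HMD for Leng8, Coro6, Eml5 and Muc3a were 3.20, 3.02, 1.88 and 3.73 with a pseudocount of 0.1, 3.36, 3.14, 2.03 and 3.66 after TPM scaling, and 3.31, 3.14, 2.00 and 3.95 by voom. Against Con, those of Coro6, Eml5 and Muc3a were 3.64, 1.82 and 4.52 with that pseudocount and 3.79, 1.93 and 4.87 by voom, and the 4 values after TPM scaling were 3.31, 3.72, 1.99 and 4.27. Quantile normalization gave 3.22 for Leng8 and 2.69 for Muc3a against HMD, and 1.68 for Eml5 and 2.93 for Muc3a against Con, where centring on the median ratio gave 1.67 for Eml5. The cause was not tested. A pseudocount under 1 and voom compress low genes less by construction.

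In HMD vs Con the signs of Leng8 (-0.30 to 0.11) and Eml5 (-0.19 to 0.014) turned as libraries were left out. Leng8 was 0.02 without Con replicate 1 and 0.11 without Con replicate 3, and Eml5 was 0.014 without HMD replicate 1. The fit of all 3 groups called 10 genes, and leaving out a library 0 to 2, with 2 without Con replicate 2. A filter at 5 FPKM tests fewer genes and left 4166 called genes against HMD, 3260 against Con and 3 neighbours, and it removed Coro6 and Eml5 from HMD vs Con. Leaving out a library gave 3302 to 6269 called genes against Con, with 3424, 3347 and 3302 without Bet+HMD replicate 1, 2 and 3, beside 5422.

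Same-numbered replicates were not taken as pairs, as their deviations correlated at -0.176 to 0.347 and not every pair exceeded 0.1. With the replicate number as a block, 0, 5615 and 3924 genes were called in HMD vs Con, Bet+HMD vs HMD and Bet+HMD vs Con. Depth limits Muc3a most, at 7 to 29 reads per Con or HMD library.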
